A study of Homo sapiens with 4 samples.

Results

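The aminoacyl-tRNA synthetases are the enzymes that attach each amino acid to its transfer RNA. A set of 38 genes was taken by symbol from the 55764 gene names with expression values: 20 cytosolic enzymes, 16 mitochondrial enzymes and the 2 scaffold proteins AIMP1 and AIMP2. All 38 symbols were present, most cytosolic ones under their older form without a final digit (KARS for KARS1). Expression was measured by bulk RNA sequencing of TE5, a human esophageal squamous cell carcinoma line, in 2 control and 2 ETS1 libraries. Per the labels, the ETS1 libraries came from cells stably overexpressing the transcription factor ETS1 from a CMV-driven lentiviral vector, and the controls, labelled WT, carried the empty backbone. Both groups had therefore been through virus exposure. Replicates carry the numbers 1 and 2, with nothing in the labels on whether they were separate infections or cultures, so the p-values may measure only technical spread.

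Each synthetase recognises 1 amino acid and the tRNAs that carry its anticodons, activates the amino acid with ATP and transfers it to the tRNA end. In human cells the cytosol and the mitochondrion use mostly separate enzymes, and the mitochondrial ones, marked by a final 2 in the symbol, are encoded in the nucleus and imported. GARS and KARS are exceptions, since each gene supplies both compartments. Several cytosolic enzymes sit in the multisynthetase complex, held together by AIMP1, AIMP2 and EEF1E1 (also called AIMP3). Many cytosolic synthetase genes are known targets of ATF4, the transcription factor of the amino acid and unfolded protein responses.

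The recovered read totals were 40356564 and 44119426 in the controls and 57269727 and 56502625 in the ETS1 libraries. ETS1 itself, the overexpressed gene, had 0.491 and 0.509 FPKM (fragments per unit of gene length and of sequencing depth) in the controls and 1.84 and 1.87 in the ETS1 libraries. The mean FPKM was 3.71 times the control level, which is a change of 0.93 ± 0.0617 on the log2(FPKM + 1) scale (SE, limma adjusted p = 0.000704), a scale that understates changes of such low values. Each control showed 0 FPKM for the squamous markers TP63, KRT14 and KRT5, and no ETS1 library exceeded 0.0165 for any of them, while the simple-epithelial KRT8 and KRT18 ranged from 3.87 to 10.5 in the controls. The general epithelial genes EPCAM and CDH1 were low, with at most 1.37 and 0.571 FPKM in the controls. In the ETS1 libraries KRT8 was higher (0.62) and KRT18 lower (-0.29). The squamous label was thus not borne out by these 3 markers. Of 11 matched markers of blood, endothelial, stromal and other cells, COL1A1 alone reached the 1 FPKM mean needed for testing. Its 2.17 and 2.06 FPKM in the controls stood below its 2.81 and 2.88 in the ETS1 libraries.

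Changes below are ETS1 minus control on the log2(FPKM + 1) scale, tested with limma, where "called" means an adjusted p under 0.05 over all 14306 tested genes. The background was large: 59.1% of all tested genes were called, 30.7% higher and 28.4% lower. Both ETS1 values lay below both control values in 38.9% of tested genes and above them in 43.1%. In bulk RNA, fewer cells expressing a gene and less RNA per cell cannot be told apart.

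The synthetase genes were expressed at very different levels, compared here in FPKM, which is scaled to gene length. Averaged over all 4 libraries, the cytosolic genes ran from 10.7 FPKM for CARS, the cysteine enzyme, to 93.7 for SARS, the serine enzyme, with a median of 43.4. The mitochondrial genes that were tested ran from 4.19 FPKM for FARS2, the phenylalanine enzyme, to 48.8 for IARS2, the isoleucine enzyme, with a median of 8.06. SARS2, the mitochondrial serine enzyme, was lowest of the whole set at 0.777 and 0.894 FPKM in the controls and 0.665 and 0.645 in the ETS1 libraries, under the 1 FPKM filter, and was not tested. Its ETS1 values were both lower. SARS2 shares 46.2% of its exon bases with a same-strand gene, so its reads may be divided between the genes.

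**Figure D1:**
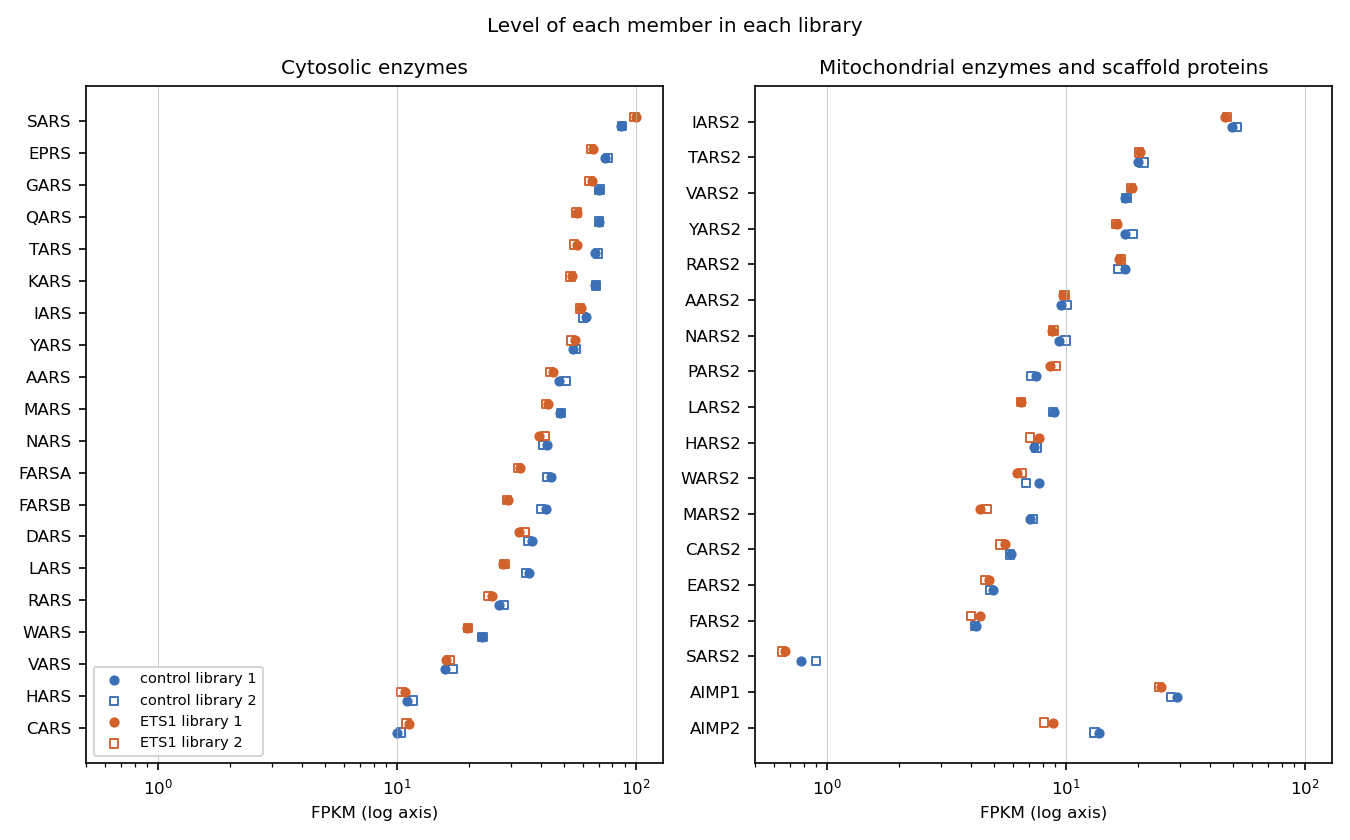
FPKM on a log axis of the 38 genes in each of the 4 libraries, cytosolic genes on the left and mitochondrial and scaffold genes on the right. Each point is 1 library, and the cytosolic genes lie mostly above the mitochondrial ones, with IARS2 the highest mitochondrial gene and SARS2 the lowest of all.

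Among the 20 cytosolic synthetases, 12 were lower in ETS1 cells, 2 were higher and 6 were not called. The 12 that fell were AARS, EPRS, FARSA, FARSB, GARS, KARS, LARS, MARS, QARS, RARS, TARS and WARS, and the 2 that rose were SARS and CARS. The median change was -0.15, against 0.02 over all tested genes. Tested genes within the same range of mean FPKM (4450 genes, the cytosolic list included) had a median change of -0.05, with 42.0% called lower and 25.7% higher. Both ETS1 values lay below both controls in 15 of the 20, against 51.2% of those 4450 genes. The changes were small, none of the called cytosolic genes reaching 1.5-fold. Summed over the 20 genes, the level was 938 and 943 FPKM in the controls and 848 and 839 in the ETS1 libraries, a change of -10.4%. With quantile normalization in place of the authors' scaling, 7 were called lower and 3 higher, and the median change was -0.05.

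The largest falls among the cytosolic enzymes were in the 2 genes of phenylalanyl-tRNA synthetase, which is built of alpha and beta subunits. FARSB, the beta subunit, had 42.0 and 40.3 FPKM in the controls and 29.1 and 28.9 in the ETS1 libraries, a log2 change of -0.49 ± 0.0320 (SE, limma adjusted p = 0.000684). FARSA, the alpha subunit, had 44.3 and 42.6 FPKM in the controls and 32.8 and 32.1 in the ETS1 libraries, a log2 change of -0.41 ± 0.0323 (SE, limma adjusted p = 0.000978). In both subunits the groups were far apart beside the gap within each group, and the 2 subunits stayed near each other in level in every library. They lie on different chromosomes, FARSA on 19 and FARSB on 2. The 50 tested genes around FARSB had a median change of 0.31, opposite in sign to FARSB, and those around FARSA had -0.04.

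KARS, the lysine enzyme of both compartments, had 67.9 and 68.3 FPKM in the controls and 54.0 and 53.4 in the ETS1 libraries, a log2 change of -0.34 ± 0.025 (SE, limma adjusted p = 0.000845). LARS, the leucine enzyme and a known leucine sensor of the mTORC1 pathway, had 35.6 and 34.8 FPKM in the controls and 27.8 and 28.2 in the ETS1 libraries, a change of -0.32. QARS, the glutamine enzyme, had 70.2 FPKM in both controls and 56.8 and 56.5 in the ETS1 libraries, a change of -0.30. All 3 genes belong to the multisynthetase complex, and in each the replicates lay close together and the groups apart. TARS, the threonine enzyme, which is outside the complex, had 67.5 and 69.6 FPKM in the controls and 56.6 and 55.3 in the ETS1 libraries, a change of -0.29. The limma adjusted p was 0.00123 for LARS, 0.000995 for QARS and 0.00179 for TARS. With quantile normalization KARS, LARS, QARS and TARS were still called lower, with smaller changes of -0.18, -0.22, -0.14 and -0.13.

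The other cytosolic genes that fell did so by less, with log2 changes from -0.20 to -0.12. EPRS, a fused enzyme for glutamate and proline, had 74.7 and 76.6 FPKM in the controls and 66.4 and 64.9 in the ETS1 libraries (limma adjusted p = 0.00408). WARS, the tryptophan enzyme, had 22.8 and 22.9 FPKM in the controls and 19.7 and 19.9 in the ETS1 libraries, a log2 change of -0.20 (limma adjusted p = 0.00373). MARS, the methionine enzyme, had 48.2 and 48.7 FPKM in the controls and 43.1 and 42.2 in the ETS1 libraries (limma adjusted p = 0.00490). All 3 showed both ETS1 libraries under both controls. RARS for arginine, AARS for alanine and GARS for glycine changed by -0.15, -0.14 and -0.12. Their limma adjusted p-values were 0.0257, 0.0298 and 0.0160. Quantile normalization ended the calls of EPRS, MARS, RARS and AARS, whose changes were then -0.03, -0.07, -0.08 and -0.03, and turned GARS to 0.05 (limma adjusted p = 0.420, 0.0890, 0.151, 0.538 and 0.122). The call was kept under 14 of the 15 alternative settings for EPRS and MARS, 12 for GARS, 9 for RARS and 8 for AARS, the losses including single libraries left out for the last 3.

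SARS, which charges serine tRNAs and also the selenocysteine tRNA, went the other way. It had 87.2 and 87.9 FPKM in the controls and 101 and 99.0 in the ETS1 libraries, the highest level of any synthetase in each of them. The log2 change was 0.19 ± 0.0257 (SE, limma adjusted p = 0.00368), and the call held under each of the 15 alternative settings, with changes from 0.09 with the local chromosomal median removed to 0.34 with quantile normalization. CARS, the cysteine enzyme, had 10.1 and 10.4 FPKM in the controls and 11.28 and 10.97 in the ETS1 libraries, a change of 0.11 ± 0.0347 (SE, limma adjusted p = 0.0432). Its groups did not overlap, yet its call was kept under only 4 of the 15 alternative settings.

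The 250 bases before a SARS start are shown because SARS rose and its window holds the ETS core CCGGAAG, here on the opposite strand as CTTCCGG. Capitals mark the match, whose outermost base is 73 bases before the start. The sequence is from RefSeq (GRCh38.p14), plus strand, chr1:109213668-109213917, and ends 1 base before the gene's first annotated base.
SARS: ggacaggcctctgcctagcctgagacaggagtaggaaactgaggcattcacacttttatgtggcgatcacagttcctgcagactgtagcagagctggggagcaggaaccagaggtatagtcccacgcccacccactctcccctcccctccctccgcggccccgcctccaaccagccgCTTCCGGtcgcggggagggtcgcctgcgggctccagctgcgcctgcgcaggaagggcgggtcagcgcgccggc

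The 6 cytosolic genes without a call were DARS, HARS, IARS, NARS, VARS and YARS. For DARS, the aspartate enzyme, the controls had 36.8 and 35.4 FPKM and the ETS1 libraries 32.6 and 34.3, a log2 change of -0.11 (limma adjusted p = 0.0638). IARS, the isoleucine enzyme, had 61.8 and 60.3 FPKM in the controls against 58.8 and 58.6, a change of -0.06, and HARS, the histidine enzyme, changed by -0.09. In DARS, HARS and IARS both ETS1 values were the lower ones even so. In NARS for asparagine, VARS for valine and YARS for tyrosine the libraries of the groups overlapped, with log2 changes of -0.04, -0.01 and -0.02 and limma adjusted p-values of 0.408, 0.835 and 0.630. YARS, for instance, had 54.6 and 56.0 FPKM in the controls and 55.5 and 53.7 in the ETS1 libraries. With quantile normalization, NARS, VARS, YARS, DARS and IARS changed sign, and IARS and YARS were called higher (limma adjusted p = 0.0206 and 0.0233). In the other direction, DARS was called lower under 5 of the 15 alternative settings, IARS under 2, and HARS and NARS under 1 each.

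**Figure D2:**
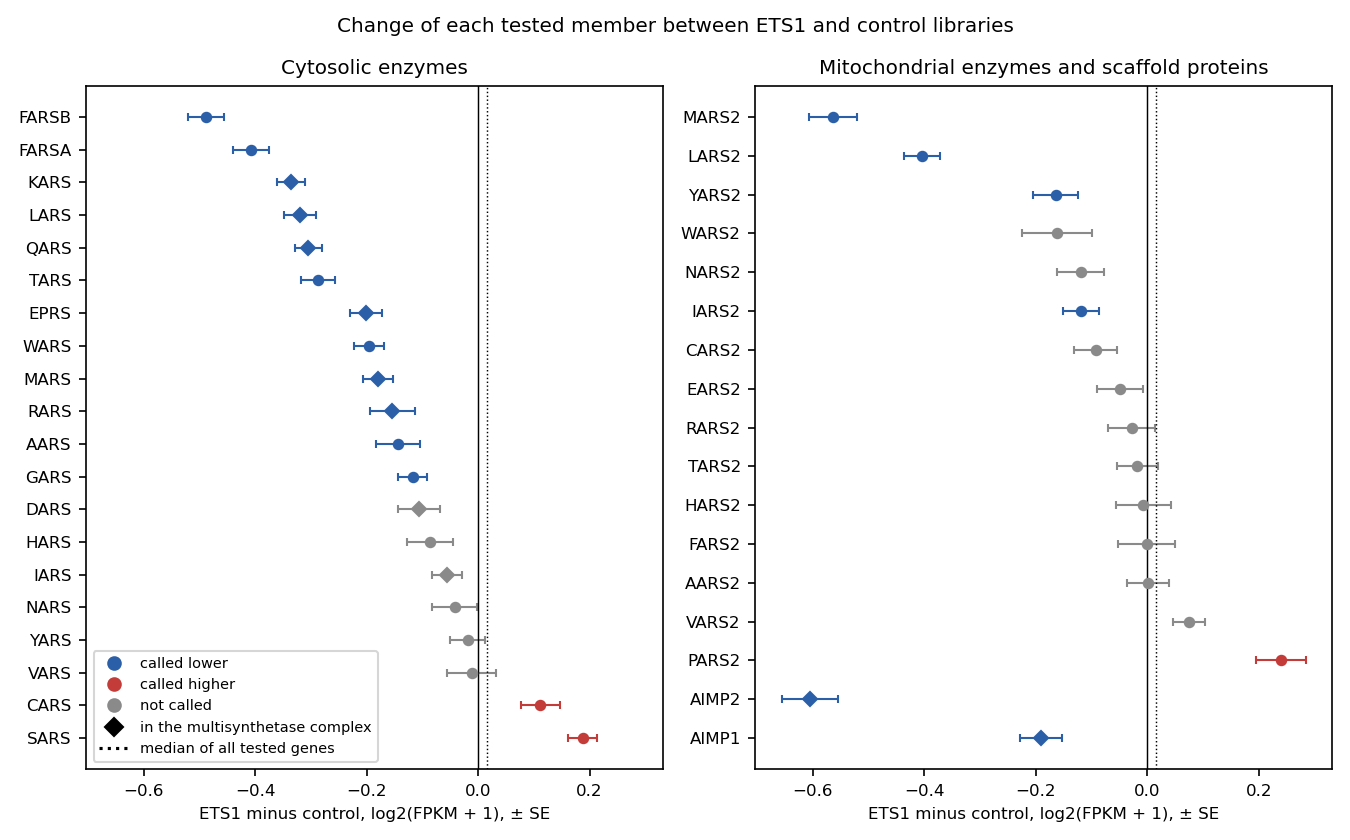
Log2 change with its standard error for each tested member, ETS1 minus control, cytosolic genes on the left and mitochondrial and scaffold genes on the right. Colour shows the call, diamonds are members of the complex and the dotted line is the median of all tested genes. Most cytosolic points lie left of 0, with SARS and CARS to the right, and AIMP2, MARS2 and FARSB are the lowest.

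Transcripts of the multisynthetase complex were mostly lower in ETS1 cells. Of its 8 enzymes (DARS, EPRS, IARS, KARS, LARS, MARS, QARS and RARS) and the scaffolds AIMP1 and AIMP2, 8 of 10 were called lower by limma and 0 higher (also 0 at an unadjusted p under 0.05, 0 with voom and 0 in the authors' deposited table), beside 28.4% of all tested genes called lower and 42.0% of those in the cytosolic FPKM range, in which all 10 lie. Both ETS1 libraries lay below both controls in all 10, beside 38.9% of all tested genes and 51.2% of those in that range. The median change was -0.20. The 12 cytosolic enzyme genes outside the complex had a median change of -0.10, with 6 called lower and 2 higher. Whether the complex differs from those 12 was not tested. With quantile normalization, 5 of the 10 were called lower and 1, IARS, higher, and the median change was -0.10.

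AIMP2, the scaffold protein on which assembly of the complex depends, had the lowest change of all 37 tested members on the log2(FPKM + 1) scale, on which the lower-expressed MARS2 is shrunk more. It had 13.7 and 13.2 FPKM in the controls and 8.86 and 8.10 in the ETS1 libraries, a log2 change of -0.61 ± 0.0504 (SE, limma adjusted p = 0.00106). The mean FPKM changed by -36.8%, beside -36.9% for MARS2, and the groups were well apart. AIMP2 shares 28.9% of its exon bases with EIF2AK1 on the opposite strand, and the use of strand in counting is not given in the sources used here, so reads of the 2 genes may not be separable. EIF2AK1, the heme-regulated eIF2alpha kinase, changed by -0.09 and had 50.8 and 51.2 FPKM in the controls and 48.4 and 47.5 in the ETS1 libraries. AIMP1, the scaffold that also gives rise to the cytokine EMAP II, had 29.3 and 27.5 FPKM in the controls and 24.96 and 24.55 in the ETS1 libraries, a log2 change of -0.19 (limma adjusted p = 0.0116). EEF1E1, the remaining scaffold and not one of the 38, had 9.80 and 8.71 FPKM in the controls and 6.89 and 7.46 in the ETS1 libraries, a change of -0.33 (limma adjusted p = 0.0120). All 3 scaffold transcripts thus fell.

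Most mitochondrial synthetases did not pass the test. Of 16 genes, 15 were tested: MARS2, LARS2, YARS2 and IARS2 were lower, PARS2 was higher and 10 were not called. Beside these 4 of 15 lower and 1 of 15 higher stand 31.3% lower and 32.8% higher among the 7974 tested genes in the same FPKM range. The number called lower was 9 with the local chromosomal median removed, 7 with voom, 2 with no filter and 2 without either ETS1 replicate 1 or ETS1 replicate 2. The median change was -0.05, against 0.01 for those genes. Summed over the 16 genes, the level was 196 and 199.7 FPKM in the controls and 185 and 186 in the ETS1 libraries, a change of -6.04%. Both ETS1 values were below both controls in 8 of the 15, against 41.0% of those 7974 genes, and above them in 2, PARS2 and VARS2.

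MARS2, the methionine enzyme, had the largest mitochondrial fall, from 7.04 and 7.25 FPKM in the controls to 4.38 and 4.65 in the ETS1 libraries. The log2 change was -0.56 ± 0.0428 (SE, limma adjusted p = 0.000884), from 863 and 972 recovered reads in the controls and 762 and 798 in the ETS1 libraries. The groups were separated by far more than the gap within either. LARS2, the leucine enzyme, went from 8.92 and 8.84 FPKM to 6.47 in both ETS1 libraries, a change of -0.40 ± 0.0321 (SE, limma adjusted p = 0.000978). Its chromosomal neighbours were also lower, the 50 tested genes around it having a median change of -0.17, and with that local median removed the LARS2 change was -0.24, still called lower. YARS2, the tyrosine enzyme, had 17.7 and 19.0 FPKM in the controls and 16.3 and 16.2 in the ETS1 libraries, a change of -0.16 (limma adjusted p = 0.0219). IARS2 had 49.8 and 51.9 FPKM in the controls and 46.2 and 47.3 in the ETS1 libraries, a change of -0.12 (limma adjusted p = 0.0302). Under quantile normalization the IARS2 change was 0.01 and YARS2, at -0.12, was not called (limma adjusted p = 0.0610). The call was kept under 9 of the 15 alternative settings for IARS2 and 10 for YARS2, and was lost in both without ETS1 replicate 1 or ETS1 replicate 2.

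PARS2, the mitochondrial proline enzyme, was the only mitochondrial gene of the list called higher. It had 7.49 and 7.14 FPKM in the controls and 8.55 and 9.08 in the ETS1 libraries, a log2 change of 0.24 ± 0.0447 (SE, limma adjusted p = 0.00919), and was the largest rise among all members. Both ETS1 libraries lay above both controls. Without ETS1 replicate 2 its limma adjusted p was 0.0530. VARS2, the valine enzyme, had 17.6 and 17.9 FPKM in the controls and 18.8 and 18.7 in the ETS1 libraries, a change of 0.08 that missed the threshold (limma adjusted p = 0.0754). It shares 22.0% of its exon bases with GTF2H4 on the same strand.

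The windows before PARS2 and MARS2 are shown together because the genes had the largest rise and the largest fall among the mitochondrial enzymes, and both windows hold the ETS core. Capitals mark the core, read as CTTCCGG at both PARS2 matches and as CCGGAAG at the MARS2 match. The first base of each match lies 216 and 134 bases before the PARS2 start and 52 bases before the MARS2 start. The bases that follow this PARS2 start were not found in the GENCODE 29 transcripts of the gene, whereas those of MARS2 were. The PARS2 sequence is chr1:54764524-54764773 on the minus strand and the MARS2 sequence is chr2:197705119-197705368 on the plus strand, both from RefSeq (GRCh38.p14).
PARS2: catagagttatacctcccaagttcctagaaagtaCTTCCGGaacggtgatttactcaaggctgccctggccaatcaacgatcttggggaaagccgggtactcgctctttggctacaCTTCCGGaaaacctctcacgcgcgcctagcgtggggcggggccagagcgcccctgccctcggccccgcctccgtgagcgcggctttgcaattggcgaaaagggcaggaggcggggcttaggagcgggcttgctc
MARS2: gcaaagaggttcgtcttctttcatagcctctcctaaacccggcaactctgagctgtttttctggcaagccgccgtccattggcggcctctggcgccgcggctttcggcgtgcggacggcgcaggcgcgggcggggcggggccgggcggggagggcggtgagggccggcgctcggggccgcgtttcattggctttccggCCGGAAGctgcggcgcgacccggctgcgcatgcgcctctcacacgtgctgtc
A match in these letters was thus present before a gene that rose and before one that fell.

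The 10 mitochondrial genes without a call were AARS2, CARS2, EARS2, FARS2, HARS2, NARS2, RARS2, TARS2, VARS2 and WARS2. WARS2, the tryptophan enzyme, had 7.72 and 6.82 FPKM in the controls and 6.24 and 6.52 in the ETS1 libraries, a log2 change of -0.16 (limma adjusted p = 0.0797). NARS2, the asparagine enzyme, had 9.31 and 9.95 FPKM against 8.71 and 8.85, a change of -0.12 (limma adjusted p = 0.0614). Both had the lower values in the ETS1 libraries. CARS2 changed by -0.09 and EARS2, the mitochondrial glutamate enzyme, by -0.05. In AARS2, FARS2, HARS2, RARS2 and TARS2 the libraries of the groups overlapped, with log2 changes between -0.03 and 0.00.

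For 13 amino acids the set holds 1 cytosolic and 1 mitochondrial gene that serve that amino acid alone. In the controls the cytosolic gene had the higher FPKM in 12 of them, the exception being valine, with a VARS to VARS2 ratio of 0.929. Serine was the most uneven, where the mean SARS to SARS2 ratio was 105 among controls and 152 among ETS1 libraries and rests on the low and overlapped SARS2. Over the 12 pairs with both genes tested, both changes were below 0 in 9, and the cytosolic change was the lower one in 6. For 3 more amino acids with a separate mitochondrial gene, where the cytosolic enzyme has 2 subunits or is fused, the cytosolic change was the lower one: FARSB (-0.49) and FARSA (-0.41) against FARS2 (-0.00) for phenylalanine, and EPRS (-0.20) against EARS2 (-0.05) for glutamate and PARS2 (0.24) for proline.

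Methionine and leucine were the pairs in which both genes were called lower and the mitochondrial gene fell further. The MARS to MARS2 ratio of FPKM was 6.84 and 6.71 in the controls and 9.85 and 9.07 in the ETS1 libraries. The LARS to LARS2 ratio was 3.99 and 3.93 in the controls and 4.30 and 4.36 in the ETS1 libraries. Threonine went the other way, since TARS fell and TARS2 had 19.97 and 21.1 FPKM in the controls and 20.4 and 20.2 in the ETS1 libraries. The TARS to TARS2 ratio was 3.38 and 3.29 in the controls and 2.78 and 2.74 in the ETS1 libraries. In cysteine the changes had opposite signs, 0.11 for CARS and -0.09 for CARS2. The ratios of the groups did not overlap in these 4 pairs, nor in alanine, histidine, serine, valine and tyrosine, 9 of the 13 in all. No background share was computed for ratios of gene pairs. Among single tested genes, 43.1% had both ETS1 values above both controls and 38.9% had both below. The differences between pair members were not tested.

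**Figure D3:**
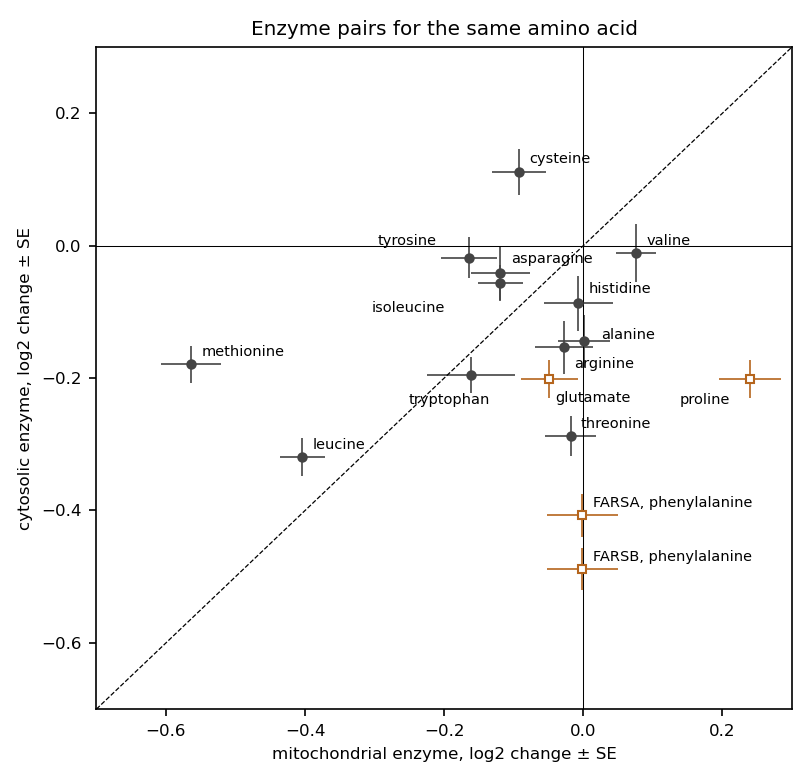
Log2 change of the cytosolic gene (vertical axis) against that of the mitochondrial gene (horizontal axis) for the 12 one-to-one pairs with both genes tested (filled circles) and for phenylalanine, glutamate and proline (open squares), with standard errors. Points on the dashed line would have equal changes. Methionine lies far to the left of it and threonine, phenylalanine and proline below it.

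The difference of the medians, cytosolic minus mitochondrial, was -0.10 on the log2 scale. The summed cytosolic level was 4.79 and 4.72 times the mitochondrial one in the controls and 4.569 and 4.503 times in the ETS1 libraries, so the ratio was lower in both. With quantile normalization the difference of the medians was 0.01, and its sign was therefore not kept. It was -0.050 without control replicate 2, -0.057 with a filter of 5 FPKM and -0.060 with the local median removed.

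The synthetases divide by fold of the catalytic core into class I, which tends to attach the amino acid to the 2' hydroxyl of the tRNA, and class II, which tends to use the 3' hydroxyl. Of 19 class I genes tested, 10 were called lower and 1 higher, with a median change of -0.15. Of 16 class II genes tested, 6 were called lower and 2 higher, with a median change of -0.10. Over all tested genes 28.4% were called lower and 30.7% higher, and the classes were not tested against each other. EPRS holds a domain of each class and is counted here in class I only, among those called lower.

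The set of 13 cytosolic genes listed as ATF4 targets (AARS, CARS, EPRS, GARS, IARS, LARS, MARS, NARS, SARS, TARS, VARS, WARS and YARS) held both risers, with 2 called higher and 7 lower and a median change of -0.12. The other 7 cytosolic genes (DARS, FARSA, FARSB, HARS, KARS, QARS and RARS) had 5 called lower and all 7 changes below 0, with a median of -0.30. In the cytosolic FPKM range 42.0% of tested genes were called lower and 25.7% higher. With quantile normalization the medians were 0.02 and -0.14, so the sign of the first was not kept. ATF4 transcript itself, which is controlled largely at translation, had 548 and 576 FPKM in the controls and 599.8 and 587 in the ETS1 libraries, a log2 change of 0.08 (limma adjusted p = 0.124).

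Of 40 tested genes of the amino acid response, 14 were called higher and 14 lower, beside 30.7% and 28.4% of all tested genes, with a median change of 0.05. With quantile normalization 20 were called higher and 10 lower. The largest rises were in ADM2, a secreted peptide, with a change of 1.89, and in DDIT4 and NUPR1, stress-response genes, with 0.82 each. ADM2 had 0.745 and 0.782 FPKM in the controls and 5.51 and 5.57 in the ETS1 libraries. The largest falls were in EIF4EBP1, a repressor of cap-dependent translation (-0.57), PYCR1, an enzyme of proline synthesis (-0.41), and CBS, an enzyme of cysteine synthesis (-0.34). EIF4EBP1 lies among neighbours with a median change of -0.27. Amino acid transporter genes of the list went both ways: SLC7A5 (-0.30), SLC1A5 (-0.29) and SLC3A2 (-0.10) were called lower, SLC7A11 (0.55), SLC1A4 (0.33) and SLC38A2 (0.22) higher, and SLC7A1 (-0.06) and SLC6A9 (0.04) were not called.

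Of 15 tested accessories of tRNA charging, genes that work beside the synthetases, 8 were called lower and 2 higher, beside 28.4% and 30.7% of all tested genes. Their median change was -0.14, and 4 were called lower with no filter or without ETS1 replicate 1. The 3 largest falls were in MTFMT, which formylates the initiator methionyl-tRNA made by MARS2 (-0.51), PTRH2, a peptidyl-tRNA hydrolase (-0.38), and EEF1E1. MTFMT had 9.07 and 9.13 FPKM in the controls and 6.07 and 6.10 in the ETS1 libraries, and its neighbours had a median change of -0.25. XPOT, which exports tRNA from the nucleus, rose from 42.4 and 42.9 FPKM to 51.7 and 51.6, a change of 0.27 (limma adjusted p = 0.00138). EEF1A1, which delivers charged tRNA to the ribosome, rose by 0.26. Its mitochondrial counterpart TUFM had 94.1 and 95.3 FPKM in the ETS1 libraries, a change of -0.31.

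WARS is also known as an interferon gamma target, and that response was set beside it. Of 19 listed genes 5 reached the filter, of which JAK1 (0.46) and IRF1 (0.36) were called higher by limma (30.7% of all tested genes were) and 0 were called lower (also 0 at an unadjusted p under 0.05, 0 with voom and 0 in the authors' deposited table). JAK1, a kinase of the interferon receptors, had 14.3 and 14.2 FPKM in the controls and 19.96 and 19.84 in the ETS1 libraries. TAP1 (-0.00), IFNGR1 (-0.01) and IFNGR2 (0.05) were not called, while WARS was lower in both ETS1 libraries.

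**Figure D4:**
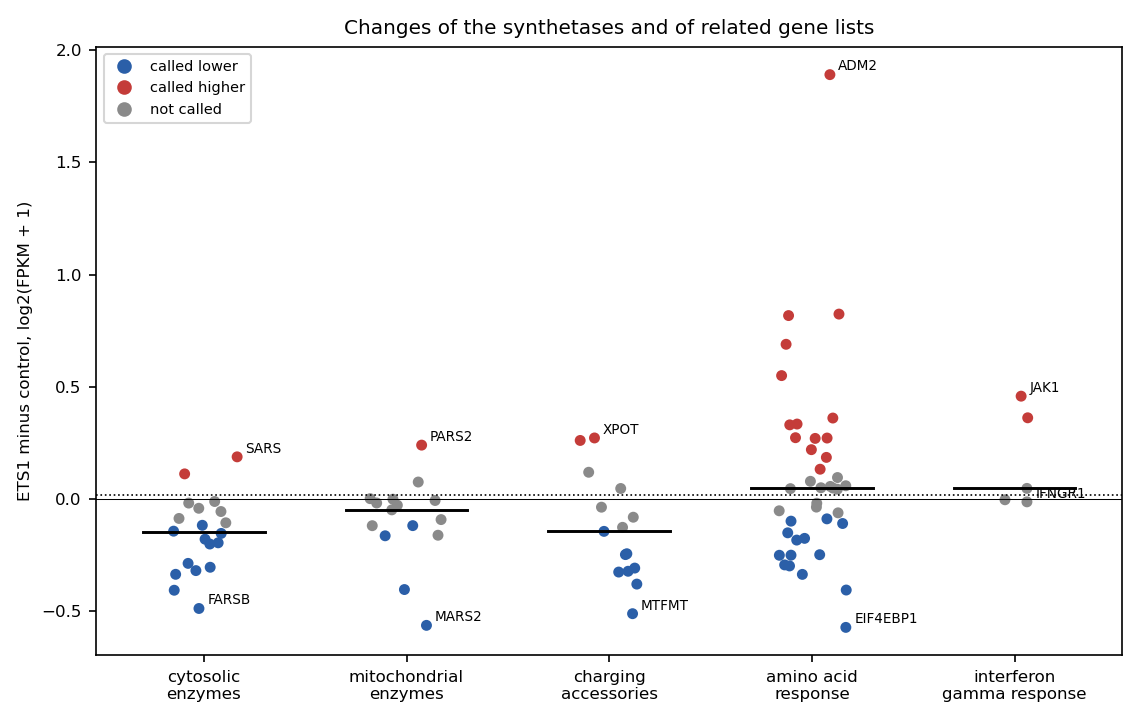
Log2 change of each tested gene, ETS1 minus control, in the cytosolic and mitochondrial synthetases, the charging accessories, the amino acid response and the interferon gamma response. Bars are list medians, the dotted line is the median of all tested genes at 0.02, and the cytosolic and accessory medians lie at -0.15 and -0.14.

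Promoter letters were compared over the 32 members found in the RefSeq promoter table (GRCh38.p14), which lists 44 starts for them. The ETS core CCGGAAG, searched on both strands in the 250 bases before the start, was present before 18 of the 44 starts, or 40.9%. It was present before 14.15% of 13091 promoters of tested genes and 8.52% of all 35116 promoters. By gene, it was found before any listed start in 9 of 16 cytosolic, 7 of 14 mitochondrial and 0 of 2 scaffold genes. The share was 19.35% of the 8924 tested genes found in the promoter table under the symbol used here. Members were also matched by newer symbols, but the background genes were not. Tested genes with a newer symbol there are thus missing from each tested-gene promoter share given here. SARS and EARS2 each have 1 site that is counted at 2 nearby starts, and HARS and HARS2 lie head to head and share the same 2 matches. All 3 of the genes called higher had a match, as did 6 of 17 called lower and 6 of 11 not called. The share was not split by call over all tested genes, and 3 genes are few. A link between the match and the direction of change was not tested. FARSA, FARSB, AIMP2 and LARS2, among the largest falls, had no match to these letters in their windows.

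The sites below show the ETS core in genes that rose (CARS) and fell (KARS, TARS and WARS), and the core TGATGNAA of the element bound by ATF4 with its partners. Each is at most 30 bases on the gene's strand, with the match in capitals, read as its reverse complement where it lies on the other strand. They lie at chr11:3057452-3057480 (CARS), chr16:75647703-75647731 (KARS), chr5:33440633-33440661 (TARS), chr14:100376335-100376363 (WARS), chr16:70289675-70289704 (AARS) and chr9:92293692-92293721 (IARS).
CARS, ETS core: ccgggcgtgtcCCGGAAGacgggcccggc
KARS, ETS core: ccccctctcccCCGGAAGaggtggggctt
TARS, ETS core: ccgaaaacttcCCGGAAGtttagaccaag
WARS, ETS core: gcgccgtcgggCCGGAAGttgttccgtcc
AARS, ATF4 element core: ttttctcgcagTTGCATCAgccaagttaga
IARS, ATF4 element core: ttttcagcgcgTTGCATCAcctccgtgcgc
The ATF4 element core was present before 4 of the 44 starts, those of AARS, GARS, IARS and YARS2, or 9.09%, against 1.58% of promoters of tested genes and 3.14% of all. Of these genes AARS, GARS and YARS2 were called lower and IARS was not called. The shares describe letters in a window and say nothing of binding in these cells.

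Members were spread over 15 chromosomes, with 7 on chromosome 1 and 5 each on chromosomes 5 and 6. The 7 on chromosome 1 (EPRS, IARS2, PARS2, SARS, TARS2, WARS2 and YARS) included 2 called higher and 2 called lower, where the chromosome's median change was 0.06. The local median around single members ran from -0.17 at LARS2 to 0.31 at FARSB. Of the 21 called members, 11 kept their call in each of the 15 alternative settings: FARSA, FARSB, KARS, LARS, QARS, SARS, TARS, WARS, LARS2, MARS2 and AIMP2. In the authors' deposited table, 13 cytosolic genes were called lower and 1, SARS, higher, beside 25.9% of its genes lower and 25.3% higher.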

How the data were processed

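Bulk RNA was measured in 4 TE5 libraries, 2 per group, grouped by the labels. The FPKM values were computed by the authors and deposited. Per the submitters' processing notes, HISAT2, HTSeq, DESeq2 and hg38/GRCh38 were used, with no versions, and the annotation and use of strand are not given in the sources used here. A second deposited table holds the authors' comparison of 16652 genes: its mean normalized count is a signal averaged over libraries, its fold changes are in log2 units, and its p-value columns are the authors' own, with 969 adjusted values missing, per the file headers.

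A count test was planned in case the values were counts. They were FPKM, so limma 3.58.1 (R 4.3.3) was used on log2(FPKM + 1) for the 14306 genes that averaged 1 FPKM or more, with an intensity trend, a group term, 2 residual and 2.84 prior degrees of freedom, two-sided tests and Benjamini-Hochberg adjustment. An exact permutation test of 2 against 2 cannot go below p = 0.333, so the single-gene tests rest on variance shared across genes. The log2(FPKM + 1) scale understates changes of genes with low FPKM. Read totals were recovered from FPKM and the mean normalized count. For genes averaging under 100 normalized counts, 99.3% of values came within 0.05 of a whole read, and for the most abundant class of genes 57.8% did. A weighted fit (voom) on these reads was an alternative. On simulated data for this comparison (10 draws, a median of 14201.5 genes tested), 50.3% of 1.25-fold, 84.3% of 1.5-fold and 97.1% of 2-fold changes were recovered. Of the calls, 8.65% were of unchanged genes. The simulation changed only a small part of the genes and assumed a replicate coefficient of variation of 2.5%. In the real comparison 59.1% of tested genes were called, so these rates need not hold there.

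The members and gene lists were chosen with earlier results of these data known. All members are named, with the lowest and highest change of each list in full, and from each related list ATF4, EEF1E1, XPOT and the 3 largest called rises and falls; other genes named there (EIF2AK1, SLC7A5, SLC1A5, SLC7A11, SLC1A4, SLC38A2, SLC3A2, SLC7A1, SLC6A9, TAP1, IFNGR1, IFNGR2 and TUFM) were chosen after their values were seen. One item of the interferon gamma list is not reported here. Exon overlaps and positions come from GENCODE 29. The local median is that of 25 tested genes on each side. Alternatives were another pseudocount (0.1), no filter and a filter of 5 FPKM, trimmed-mean and quantile scaling, the replicate block, no trend, voom, the local median, each library left out, the authors' values and, chosen after seeing the data, removal of a length and GC trend.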

Additional observations from a re-analysis of the deposited data

How the results depend on the processing

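Over 15 alternatives, 456 of the members' single values kept their direction and side of the threshold, 40 kept the direction and lost the call, 28 kept it and gained one, and 29 changed sign. Several values moved with quantile normalization, and the cause was not tested: 7 cytosolic genes were called lower, the complex had 5 lower and 1 higher, 2 mitochondrial genes were called higher, the cytosolic minus mitochondrial median was 0.010 and that of the ATF4-target synthetases 0.021. Log2 changes were then 0.0033 for DARS, 0.053 for GARS, 0.10 for IARS, 0.059 for NARS, 0.021 for VARS, 0.13 for YARS, -0.018 for AARS2, 0.011 for IARS2, 0.013 for RARS2 and 0.041 for TARS2. A single cytosolic gene was called higher (1 in place of 2) with no filter, trimmed-mean scaling, the replicate block, no intensity trend, the length and GC trend removed, the authors' values, or any library left out (1 to 1). The other changed counts were 2562 genes called higher over all and 1 interferon gene higher with a filter of 5 FPKM, where fewer genes are tested, and 2845 to 3962 with a library left out. With no filter, 2 mitochondrial and 4 accessory genes were lower. With voom, 2 mitochondrial genes were higher and 7 lower. With the local median removed, 9 mitochondrial genes and 1 interferon gene were lower. With a library left out, 0 to 1 mitochondrial genes were higher and 2 to 5 lower, and 4 to 7 accessories were lower. The lowest mitochondrial counts came without ETS1 replicate 1 or 2 (2 lower each) and, for higher calls, without ETS1 replicate 2 (0). The cytosolic minus mitochondrial median was -0.078 with no filter, -0.057 with 5 FPKM, -0.060 with the local median removed, -0.13 with the length and GC trend removed, -0.072 in the authors' deposited table, and -0.13 to -0.050 with a library left out, the latter without control replicate 2. The remaining sign changes concerned genes near 0. For VARS the change was 0.036 without control replicate 2, 0.0100 without ETS1 replicate 1 and 4.4e-05 with the length and GC trend removed, and for YARS 0.0050 without ETS1 replicate 2. With a library left out, the lowest value was -0.059 for VARS, -0.042 for YARS, -0.054 for FARS2, -0.065 for HARS2 and -0.075 for RARS2, and the highest for AARS2 was 0.034. For AARS2 it was -0.019 with trimmed-mean scaling, -0.029 with the local median removed, -0.031 without control replicate 1, -0.0083 without ETS1 replicate 2 and -0.022 in the authors' deposited table. For FARS2 it was 0.0044 without control replicate 1, 0.051 without ETS1 replicate 2 and 0.012 with the length and GC trend removed. For HARS2 it was 0.0087 with the local median removed, 0.0079 without control replicate 2, 0.051 without ETS1 replicate 2 and 0.021 with the length and GC trend removed. For RARS2 it was 0.019 without control replicate 1, and for TARS2 0.021 without control replicate 2 and 0.021 with the length and GC trend removed.

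Same-numbered libraries did not deviate together (r = -0.0456 across 14306 genes, which are not independent), so the numbers were not taken as pairs. With the replicate block, 3712 genes were called higher and 3571 lower, and the cytosolic genes numbered 1 higher and 10 lower. Where a library was left out, the lone sample of its group was assumed to vary like the other group. By the recovered reads, MARS2, AIMP2, PARS2 and FARS2 rest on at most 1208 reads in any library, and RARS, the cytosolic enzyme with the fewest, on at least 3685.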
